A study of Rattus norvegicus with 4 samples.

Results

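The developmental and epithelial transcription factors described here are 142 genes out of 14217 measured. They were chosen by gene symbol alone: the Hox, Lhx, Dlx, Msx, Pax, Pitx, Meis, Pbx, Irx, sine oculis homeobox (Six3, Six5 and their relatives), Tbx, Sim, Sox, Gata, Grhl, Klf, Barx, Ovol, Elf, Fox and Tfap2 families together with Ehf and Tp63, wherever a probe set of the array carried that symbol and no other. In all 223 probe sets matched. Where a gene had several, the brightest on average over the 4 arrays stood for it. No Ovol gene was matched, and Hoxa11-as, an antisense RNA, entered by its symbol.

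The study compared 2 epithelia of male Sprague-Dawley rats. Junctional epithelium, which attaches the gum to a tooth, gave 2 arrays, and peri-implant epithelium, which lines the gum beside an implant, gave 2. An upper first molar was extracted at 4 weeks of age and an implant of titanium alloy placed. Tissue was taken 4 weeks later from 20 rats by laser microdissection of frozen sections. The labels give the same treatment, tooth extraction and implant placement, for both groups. The labels do not say how many animals contributed to each array, nor from which teeth or animals the junctional samples came. The p-values therefore measure only the spread between these arrays, which may be technical.

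Transcription factors of these families bind DNA and set which genes a cell type expresses. In stratified epithelia, TP63 maintains the basal progenitor cells, the grainyhead-like factors GRHL1 to GRHL3 and the Krüppel-like factors KLF4 and KLF5 act in barrier formation and renewal, and the epithelial ETS factors ELF3, ELF5 and EHF act in differentiating cells. PAX9, PITX1, MSX1, MSX2 and the DLX and IRX homeobox factors are known from the development of the mouth and teeth. HOX factors pattern the body behind the head, with MEIS and PBX proteins as their DNA-binding partners, although MEIS and PBX proteins also act where HOX genes are silent.

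Signals are given on the log2 scale, and with 2 arrays a group their precision is limited. The background level was set at 6.42, the maximum that 27 probe sets for bacterial control transcripts reached. Arrays of the same epithelium correlated at 0.914 and 0.911 (Pearson's r over probe sets, which are no independent replicates) and arrays of different epithelia at 0.882 to 0.887. All 8 measured markers of stratified squamous epithelium, among them Krt5, Krt14, Cdh1 and Epcam, were above background on every array, and Krt15 and Krt17 rose. Ambn and Amelx, the 2 measured markers of enamel organ and junctional epithelium, lay below it on all 4 arrays, so the labelled junctional identity could not be checked. All 9 fibroblast markers were above background in both groups, with summed linear signals of 47087 and 47338 on the junctional arrays against 54483 and 54582 on the peri-implant ones. Of the neutrophil markers, 5 of 5 rose (S100a8 and S100a9, which keratinocytes also make, among them), with summed linear signals of 38392 and 38665 against 103336 and 89952. Of the macrophage and dendritic cell markers, 4 of 8 rose and 1 fell, with sums of 2688 and 2532 against 4488 and 4860. The part of these cells in the results below was not tested, and in such bulk samples fewer cells of a type and less RNA per cell cannot be told apart.

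Among the factors of stratified epithelium, Sox2 and Elf3 rose in peri-implant epithelium. Of those above background on every array, 14 of 18 differed by less than 0.5 on the log2 scale, a share near that of all such genes (6608 of 8814). Pax9, Irx4, Irx3 and Sim2 of the oral and dental factors rose, as did Foxc1, Meis2, Sox11 and Foxn3, while Sox4, Klf6, Klf7, Pbx3, Foxo4 and Foxk2 fell. Of the 142 genes, 10 rose in peri-implant epithelium and 6 fell (limma with an intensity trend in its variance prior, Benjamini-Hochberg adjusted p under 0.05 over all genes). That is 7.04% and 4.23% of the factors, against 7.39% and 5.34% of all genes (16 factors in either direction, against 12.7% of all genes). With genes below background counted, calls were thus no more common among these factors than on the whole array. Arrays of the groups did not overlap, with peri-implant higher, for 36 factors and 31.2% of all genes, with peri-implant lower for 23 factors and 25.2%, and in either direction for 56.3% of all genes. The median log2 difference was 0.06 over the 142 factors and 0.05 over all genes. Median centring moved all differences by -0.10, so that 10 of the 73 factors above background changed sign, none of them called, and 8 factors passed as higher and 7 as lower. Over all genes it turned 1051 higher and 759 lower calls into 765 and 1157. For 73 of the 142 factors (51.4%, against 70.6% of all genes) at least 1 group mean exceeded background, and for 57 all 4 arrays did. The other 69 had no group mean above background, and 62 of these had no array above it. Where a group mean exceeded background, 57 of 73 factors and 8242 of 10032 genes were not called.

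These calls depend on the variance prior, and leaving out any array removed most of them, as it removed most calls over all genes. With limma's default prior 0 of the 142 factors passed, as did 0% of all genes. Without adjustment, 26 factors and 20.1% of all genes had a default p under 0.05. The adjusted p of the 16 called factors under the default prior ran from 0.0898 to 0.225. The counts higher and lower were 3 and 0 without junctional replicate 1, 4 and 0 without junctional replicate 2, 1 and 2 without peri-implant replicate 1, and 0 and 3 without peri-implant replicate 2. Each of the 16 kept its direction with quantile normalization, with median centring and with the mean of all probe sets. The other alternatives could not turn it, since they leave the difference as it is or the arrays of the groups do not overlap.

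**Figure D1:**
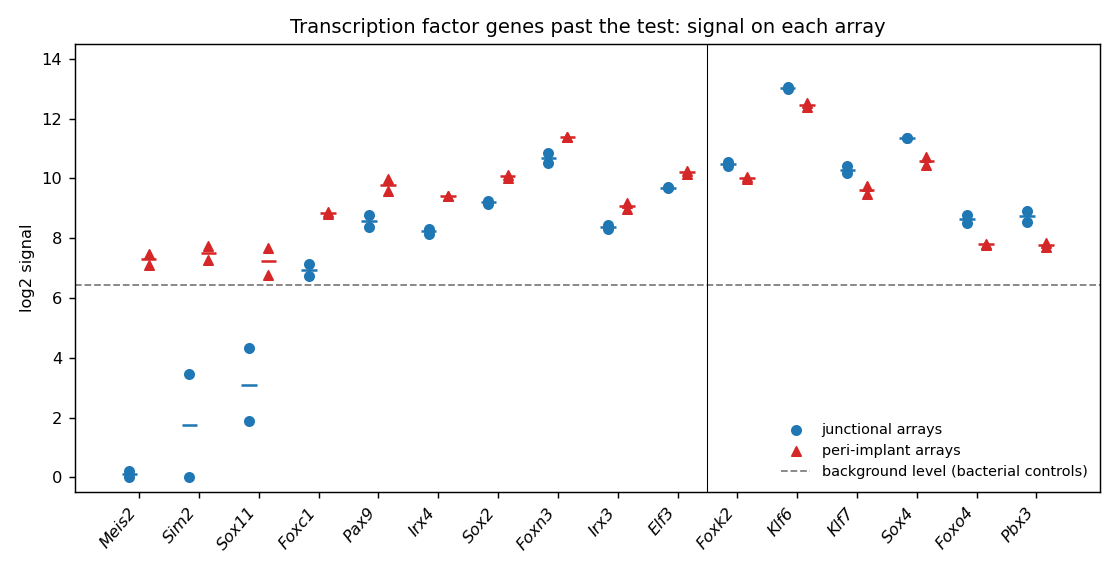
Log2 signal (y axis) of the 16 factors past the test on each array, with junctional arrays as blue circles, peri-implant arrays as red triangles, group means as short bars and the background level of 6.42 as a dashed line. The 10 factors left of the vertical line rose and the 6 right of it fell, and Meis2, Sim2 and Sox11 have both junctional arrays below background.

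The factors that define stratified epithelium came first in the comparison. Tp63 had log2 signals of 12.69 and 12.66 on the junctional arrays and 12.90 and 12.60 on the peri-implant arrays. The peri-implant arrays lay on either side of the junctional ones, and the difference was 0.07 (95% interval -0.16 to 0.31). Klf5, a factor of basal and proliferating epithelial cells, was at 14.37 and 14.45 against 14.54 and 14.46, a difference of 0.09 (-0.07 to 0.24) with no overlap. Grhl1 was at 11.51 and 11.45 against 11.59 and 11.51, and Grhl3 at 11.52 and 11.66 against 11.51 and 11.61. Their differences were 0.07 (-0.13 to 0.27) and -0.03 (-0.24 to 0.18). The epithelial ETS factor Ehf stood at 12.36 and 12.33 against 12.53 and 12.42, without overlap but with a difference of 0.13 (-0.05 to 0.31) that did not pass (adjusted p = 0.323). For these 5 genes the intervals leave out a change of 0.5 on the log2 scale in either direction.

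Of the 22 epithelial factors measured, 20 exceeded background in at least 1 group and 18 on all 4 arrays. Of these 18, 14 differed by less than 0.5 on the log2 scale, as did 6608 of the 8814 genes above background on every array. In the whole set of 22, 2 rose (9.09%, against 7.39% of all genes) and 0 fell (against 5.34%). The role lists, this one included, were chosen with results of these arrays known. Elf3, an ETS factor of differentiating and inflamed epithelia, was at 9.71 and 9.68 on the junctional and 10.26 and 10.14 on the peri-implant arrays. Both peri-implant arrays were the higher ones, and the gene rose 1.42-fold (log2 difference 0.51, SE 0.13, adjusted p = 0.0326). The Elf3 call was lost with median centring (adjusted p = 0.0763). Sox2, which maintains progenitor cells of the oral and upper digestive epithelium, was at 9.26 and 9.16 against 10.10 and 10.03. It rose 1.81-fold (log2 difference 0.86, SE 0.14, adjusted p = 0.00537), and its other probe set above background on every array differed by 0.57.

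Other epithelial factors had values between these. Tfap2a, the AP-2 factor of early surface ectoderm and basal keratinocytes, was at 9.79 ± 0.04 and 10.19 ± 0.13 (mean ± SD of 2 arrays) and did not pass (adjusted p = 0.0764). Tfap2b had means of 5.14 ± 1.47 and 7.18 ± 0.39, with both junctional arrays below background, and did not pass (adjusted p = 0.092). The 3 probe sets of Tfap2b all had a higher peri-implant mean, by 1.13 to 4.05, and none had a junctional array above background. The dimmest of them was at 4.17 and 2.42 against 7.33 and 7.36. In limma with an intensity trend over all probe sets with 1 symbol, its adjusted p was 0.0163. It was picked out after its values were seen. The value of Tfap2e was lower, 8.13 ± 0.20 against 7.36 ± 0.25 (adjusted p = 0.101), and that of Tfap2c was 8.29 ± 0.08 against 8.37 ± 0.25. Klf3 was at 11.61 ± 0.13 and 11.87 ± 0.04 (adjusted p = 0.106). Klf4, a factor of suprabasal barrier-forming cells, was at 10.51 ± 0.10 and 10.65 ± 0.09 (adjusted p = 0.47). The differences of Foxq1, Foxe1, Elf5, Sox15 and Dlx3 lay between -0.15 and 0.06. Gata6 was at 7.35 ± 0.56 and 8.03 ± 0.42, with overlapping arrays. Gata3 exceeded background only on the peri-implant arrays, at 6.44 on both. Foxa1 and Foxa2, endodermal factors, lay below background in both groups. Grhl2, Ovol1, Ovol2, Foxn1, Barx2 and Sox9 carried no probe set under that single symbol and were not analysed here.

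**Figure D2:**
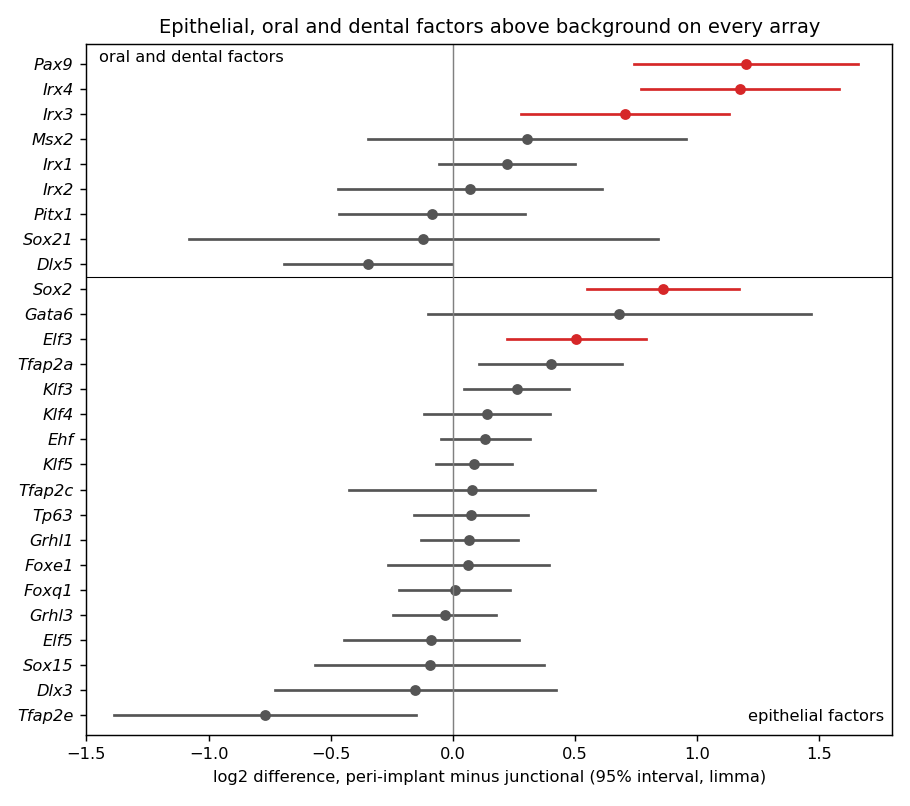
Log2 difference between peri-implant and junctional epithelium (x axis, point, with limma's 95% interval as a bar) for the epithelial factors and the oral and dental factors above background on every array. Factors past the test are red: Sox2 and Elf3 among the epithelial factors, and Pax9, Irx4 and Irx3 among the oral and dental ones, all to the right of 0.

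Among the 17 oral and dental factors measured, 4 rose (23.5%, against 7.39% of all genes) and 0 fell (against 5.34%), and 14 exceeded background in at least 1 group. This list was chosen with results of these arrays known, so its share is no independent evidence. Pax9, a paired-box factor required for teeth and for the structure of the tongue and palate, had signals of 8.38 and 8.78 on the junctional and 9.59 and 9.97 on the peri-implant arrays. The groups did not overlap, and Pax9 rose 2.30-fold (log2 difference 1.20, SE 0.20, adjusted p = 0.00671). It lies on chromosome 6 from 79917466 to 79938551 in the rat assembly GRCr8, as a protein-coding gene.

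Iroquois homeobox genes stand in paired genomic clusters. In GRCr8, Irx4 (31859101 to 31868089), Irx2 (32489512 to 32494930) and Irx1 (33123122 to 33128951) lie side by side on chromosome 1, and Irx5 (30812033 to 30816885) and Irx3 (31384803 to 31388241) on chromosome 19. Irx4 was at 8.32 and 8.14 on the junctional and 9.42 and 9.40 on the peri-implant arrays, with no overlap, and rose 2.26-fold (log2 difference 1.18, SE 0.18, adjusted p = 0.00417). Its cluster neighbours did not pass: Irx2 was at 9.41 and 8.72 against 8.99 and 9.28, a difference of 0.07 (95% interval -0.47 to 0.61). Irx1 was at 10.30 and 10.08 against 10.41 and 10.42, a difference of 0.22 (-0.06 to 0.50), and its other probe set differed by -0.41. The Irx4 interval, 0.77 to 1.58, does not overlap with either of these, but the differences between the genes were not tested. On chromosome 19, Irx3 was at 8.31 and 8.45 against 8.98 and 9.19 and rose 1.63-fold (adjusted p = 0.0416). The other probe sets of Irx3 were not above background on every array. The call was lost with quantile normalization (adjusted p = 0.0602) and with median centring (adjusted p = 0.0629). Irx5 had no group mean above background.

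Sim2, a bHLH-PAS factor needed for palate formation in mice, was at 3.47 and 0.00 on the junctional and 7.26 and 7.72 on the peri-implant arrays. Both junctional arrays lay below background, and the gene, on chromosome 11 from 46883859 to 46923305, was at least 2.10-fold higher (adjusted p = 0.0193). The adjusted p belongs to the log2 difference of 5.76 and not to this bound. Sim2 also passed with signals raised to background. The remaining oral and dental factors did not pass. Dlx1, a homeobox gene of the jaw primordia, was at 7.08 and 8.06 against 5.32 and 6.28, with both peri-implant arrays below background (adjusted p = 0.0506). Dlx1 did pass with quantile normalization (adjusted p = 0.0316) and with median centring (adjusted p = 0.0335). Dlx5 was at 9.50 ± 0.07 against 9.15 ± 0.08 (adjusted p = 0.171), and Msx2 at 7.62 ± 0.15 against 7.93 ± 0.40. Pitx1, which marks the lower jaw and hindlimb fields of the embryo, was at 9.91 and 10.23 against 9.79 and 10.18, with overlapping arrays. The T-box factors Tbx2 and Tbx3 had means of 6.19 and 6.34 on the junctional and 7.28 and 7.17 on the peri-implant arrays (adjusted p = 0.188 and 0.332). Msx1 and Sox21 overlapped between groups, and Barx1 and Pitx3 lay below background. Lhx6, Lhx8 and Tbx1 were not matched and not analysed here.

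The body-axis factors were largely below the measurable range. Of 24 Hox genes, Hoxd8 was the 1 with a group mean above background, at 6.95 and 6.25 against 7.31 and 6.30, and for 22 of the 24 no array exceeded background. Their partners of the TALE homeobox class were measurable in part. Meis2, a TALE cofactor active in the embryonic face and palate, was at 0.20 and 0.00 on the junctional and 7.11 and 7.47 on the peri-implant arrays. It stood at the floor of the scale in junctional samples and above background in both peri-implant samples, at least 1.83-fold higher (adjusted p = 0.00606). The adjusted p belongs to the log2 difference of 7.19 and not to this bound. That difference itself has no use as a fold, because signals below background have no order. Meis2 also passed with signals raised to background. Meis2 lies on chromosome 3 from 123197066 to 123399002. Meis1 was at 7.87 and 8.09 against 8.18 and 7.88, a difference of 0.04 (95% interval -0.51 to 0.60). Pbx3, a PBX partner of MEIS proteins, was at 8.53 and 8.92 against 7.69 and 7.83 and fell 1.95-fold (log2 difference -0.97, SE 0.23, adjusted p = 0.029). Pbx2 was at 10.46 ± 0.06 against 10.34 ± 0.20 and did not pass (adjusted p = 0.591).

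**Figure D3:**
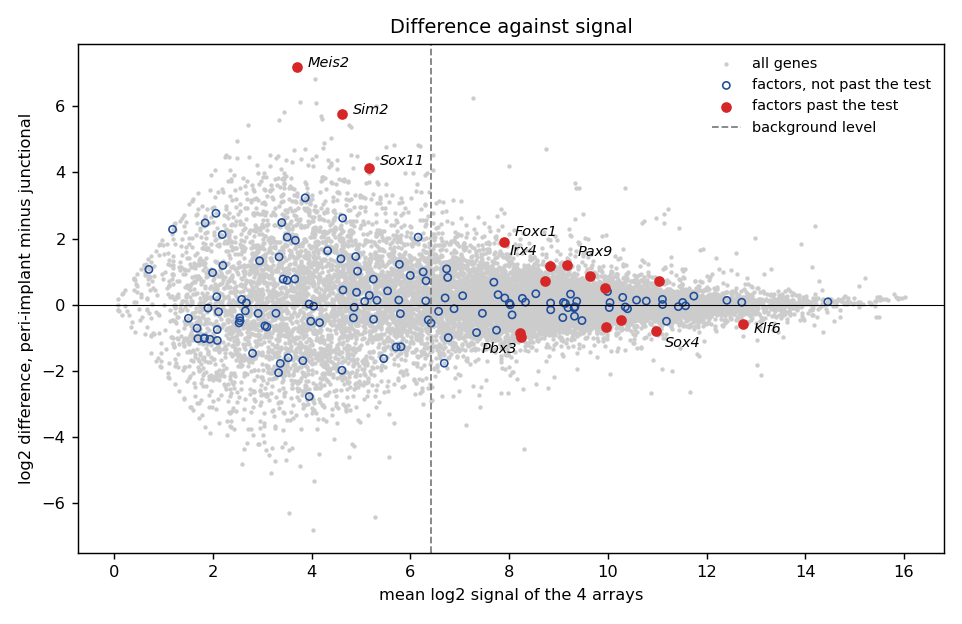
Log2 difference between peri-implant and junctional epithelium (y axis) against the mean log2 signal of the 4 arrays (x axis) for all 14217 genes (grey), with the 126 factors not past the test as open circles and the 16 past it as red points, and the background level of 6.42 as a dashed line. Differences spread widely at low signals, where Meis2, Sim2 and Sox11 lie, and little at high signals.

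Foxc1, a forkhead factor of mesenchyme, vessels and hair follicle stem cells, was at 6.75 and 7.14 on the junctional and 8.80 and 8.89 on the peri-implant arrays. Every peri-implant value was above every junctional value, and the gene rose 3.74-fold (log2 difference 1.90, SE 0.26, adjusted p = 0.00239). Its other probe set was below background on all arrays. The other endothelial factors did not pass. Sox7 was at 8.81 ± 0.20 and 8.87 ± 0.10 and Klf2, induced by blood flow, at 8.02 ± 0.53 and 8.02 ± 0.63, while Sox17 and Sox18 were above background in junctional means only, at 6.70 and 6.59. Gata2 was at 4.69 and 7.22 against 6.79 and 6.57. Endothelial markers had summed signals of 2667 and 2950 on the junctional arrays and of 2321 and 2135 on the peri-implant arrays, but single markers went both ways. Over the 8 above background on every array, log2 differences ran from -1.37 (Egfl7) to 0.87 (Tie1). Of 9 measured, 1 fell (Egfl7) and 0 rose. Of 9 fibroblast markers, 2 rose and 1 fell. Their part in the Foxc1 result was not tested.

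Of 25 signal-responsive and cell cycle factors, 2 rose (8%, against 7.39% of all genes) and 5 fell (20%, against 5.34%). This list too was chosen with results of these arrays known, so its shares are no independent evidence. Sox4, a SoxC factor active in progenitors and in wound repair, had signals of 11.36 and 11.36 on the junctional and 10.70 and 10.45 on the peri-implant arrays. Both peri-implant arrays were lower, and it fell 1.72-fold (log2 difference -0.79, SE 0.11, adjusted p = 0.00316). The 6 probe sets of Sox4 above background on every array all had a lower mean in peri-implant samples, by differences of -0.85 to -0.08. Sox11, its SoxC relative, was at 4.31 and 1.88 against 7.67 and 6.78. With junctional arrays below background it was at least 1.75-fold higher (adjusted p = 0.0269), a call lost when signals were raised to background (adjusted p = 0.123). The peri-implant SD of Sox11 was 0.63.

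Klf6, an early response factor induced by wounding, was at 13.05 and 13.01 on the junctional and 12.53 and 12.38 on the peri-implant arrays and fell 1.48-fold (log2 difference -0.57, SE 0.08, adjusted p = 0.00334). Its probe sets disagreed: the other 2, both above background on every array, differed by -0.08 and 0.07. Klf7 was at 10.18 and 10.42 against 9.74 and 9.49 and fell 1.61-fold (adjusted p = 0.019). The 3 probe sets of Klf7 above background on every array all had a lower mean, by differences of -0.69 to -0.003. The 1 that was not above it on every array differed by 0.29. By their brightest probe sets the remaining Klf factors did not pass, and Klf9, which responds to glucocorticoids, was at 11.46 ± 0.01 and 11.40 ± 0.01. Klf10, a TGF-beta response factor, was at 11.02 ± 0.22 and 11.19 ± 0.30, and Klf15 at 7.27 ± 0.13 and 6.27 ± 0.54 (adjusted p = 0.153).

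Among forkhead factors, Foxn3, a repressor linked to cell cycle checkpoints, was at 10.50 and 10.84 on the junctional and 11.40 and 11.37 on the peri-implant arrays. It rose 1.64-fold (log2 difference 0.71, SE 0.12, adjusted p = 0.00748), and all 4 of its probe sets had a higher mean, by 0.15 to 0.71. Foxo4, a FOXO factor held in the cytoplasm by insulin signalling, was at 8.51 and 8.79 against 7.79 and 7.80 and fell 1.81-fold (adjusted p = 0.0374). Its relatives Foxo1 and Foxo3 differed by -0.06 (95% interval -0.42 to 0.30) and -0.07 (-0.32 to 0.19). Foxk2 was at 10.56 and 10.42 against 9.99 and 10.06 and fell 1.38-fold (adjusted p = 0.0341), but its 4 probe sets ranged from -0.47 to 0.49. Foxm1, which drives genes of mitosis, was at 8.23 and 7.29 against 7.11 and 6.73 and did not pass (adjusted p = 0.181).

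**Figure D4:**
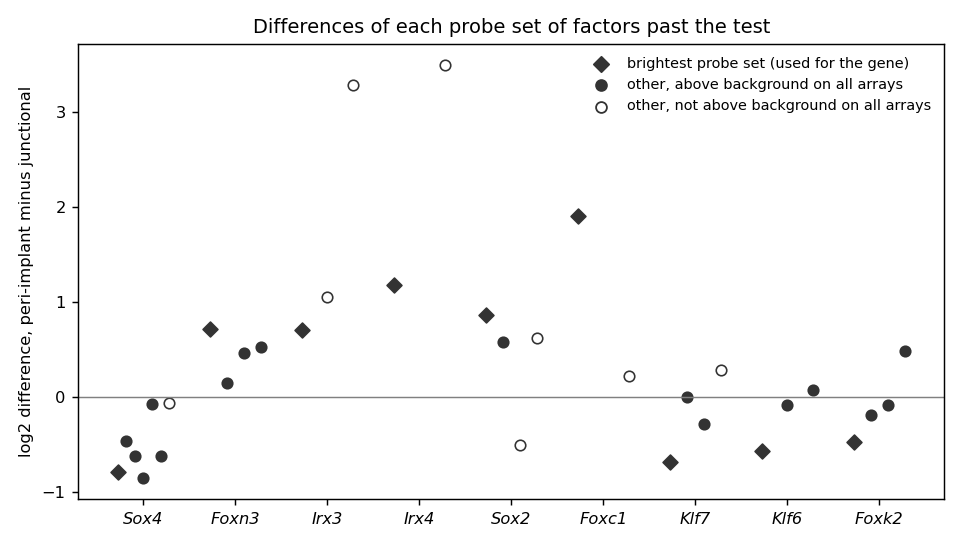
Log2 difference between peri-implant and junctional epithelium (y axis) for every probe set of the 9 factors past the test that have several, with the brightest probe set as a diamond, others above background on all arrays as filled circles and the rest as open circles. Diamonds and filled circles all lie below 0 for Sox4 and above 0 for Foxn3 and Sox2, and lie on both sides of 0 for Klf6 and Foxk2.

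With the mean of all probe sets of a gene in place of the brightest, 6 of the 142 factors passed as higher and 2 as lower. Over all genes 838 and 584 did. Sox4 then had a difference of -0.50 (adjusted p = 0.0704), Foxn3 0.46 (adjusted p = 0.0956), Klf6 -0.19 (adjusted p = 0.185) and Foxk2 -0.06 (adjusted p = 0.842). Irx3 had 1.68 (adjusted p = 0.0605) and Foxc1 1.06 (adjusted p = 0.381), with dim probe sets in the mean, Sox2 had 0.39 (adjusted p = 0.607) and Klf7 -0.17 (adjusted p = 0.668).

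Factors of blood cells, of neural crest derivatives and of other organs showed 0 calls by limma with an intensity trend, against 12.7% of all genes. These were 6, 2 and 32 genes, of which 4, 0 and 3 exceeded background in a group mean. With so few measurable genes, the absence of calls says little about these classes. Foxp1 was at 11.44 and 11.43 against 10.60 and 11.28 (adjusted p = 0.113), Klf13 at 9.28 ± 0.04 against 8.89 ± 0.00 (adjusted p = 0.147), and Elf1 and Elf2 differed by 0.11 and 0.04. Gata1, the erythroid and mast cell factor, and Klf1, its partner in red cells, lay below background. Sox10 and Foxd3 of neural crest and glia also lay below it in both groups. Of 32 factors of other organs, 3 exceeded background in a group mean: Six5 at 8.17 ± 0.23 and 8.37 ± 0.13, Six3 at 5.76 ± 0.52 and 6.76 ± 0.11, and Foxi2 at 6.44 ± 0.31 and 5.17 ± 0.54. Below background in both groups were all 5 Lhx genes measured and, apart from Pax9, the 5 other Pax genes.

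Promoter sequences of the called factors were read to see what the moving genes share. Of the 142 factors 90 had an entry in the RefSeq promoter table for GRCr8, as had 12 of the 16 called ones. The windows compared were the 250 bases before the 1 start listed there for each gene, which need not be its outermost. Those of Elf3, Foxn3, Foxo4, Irx3, Klf7 and Pax9 overlapped the gene's own annotated span, and those of Foxk2 and Sox2 another gene. The Pax9 window, chr6:79921551-79921800, lies inside the span given above. The counts below are therefore not all of sequence upstream of a gene. The windows of 4 called factors overlapped no annotated gene and are therefore shown. They belong to 3 factors that rose (Foxc1, Irx4 and Sox11) and 1 that fell (Klf6). Each is written 5′ to 3′ on the gene's strand, here the minus strand for all. Whether they regulate these genes was not tested. Capitals mark matches on either strand to the AP-2 motif, spelled GCCNNNGGC, the GC box, spelled GGGCGG, the CACCC box, spelled GGGTGGG, or the CCAAT box. The windows are chr17:32844101-32844350 for Foxc1, chr1:31868090-31868339 for Irx4, chr6:49738795-49739044 for Sox11 and chr17:69458479-69458728 for Klf6.
Foxc1: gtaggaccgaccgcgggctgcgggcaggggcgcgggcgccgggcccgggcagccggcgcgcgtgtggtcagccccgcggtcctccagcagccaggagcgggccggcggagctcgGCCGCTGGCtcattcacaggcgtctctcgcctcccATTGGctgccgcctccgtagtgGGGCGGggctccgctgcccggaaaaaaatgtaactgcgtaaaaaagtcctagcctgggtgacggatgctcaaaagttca
Irx4: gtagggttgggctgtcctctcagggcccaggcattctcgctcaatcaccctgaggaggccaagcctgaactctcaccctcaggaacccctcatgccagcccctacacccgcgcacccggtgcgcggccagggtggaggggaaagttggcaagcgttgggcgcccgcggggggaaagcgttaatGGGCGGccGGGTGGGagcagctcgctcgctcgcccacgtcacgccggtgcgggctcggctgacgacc
Sox11: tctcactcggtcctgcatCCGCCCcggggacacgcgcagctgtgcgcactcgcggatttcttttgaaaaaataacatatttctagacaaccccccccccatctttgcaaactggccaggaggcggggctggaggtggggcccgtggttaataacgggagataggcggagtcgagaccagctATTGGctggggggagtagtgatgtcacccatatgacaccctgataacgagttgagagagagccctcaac
Klf6: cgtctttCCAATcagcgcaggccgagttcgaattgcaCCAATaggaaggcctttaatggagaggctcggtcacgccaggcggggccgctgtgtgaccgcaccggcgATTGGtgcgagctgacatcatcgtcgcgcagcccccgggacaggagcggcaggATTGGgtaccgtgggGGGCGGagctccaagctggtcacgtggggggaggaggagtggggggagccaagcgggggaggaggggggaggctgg

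The Foxc1 window held an AP-2 match, a GC box and a CCAAT box, and 70.0% of its bases were G or C. The Irx4 window held a GC box followed by a CACCC box, the latter starting 59 bases before the annotated start. The Sox11 window held a GC box and a CCAAT box, and the Klf6 window 4 CCAAT boxes and a GC box. A GC box, the core bound by SP and many KLF proteins, stood in 9 of the 12 called windows, in 56.7% of the windows of all the factors and in 32.4% of all 27457 promoters. CCAAT boxes stood in 7 of the 12, in 45 of the 90 and in 34.3% of all. CACCC boxes stood in 5 of the 12, 22.2% of the 90 and 14.7% of all, and the AP-2 motif in 1 of the 12, 24.4% and 13.0%. The windows of the factors were rich in G and C, with a median of 62.0%, against 52.0% over all promoters and 63.2% over the called ones. The grainyhead motif AACCGGTT, the AP-1 motif TGANTCA, the forkhead motif TGTTTAC and the TATA box TATAAA were found in 0 of the 12 called windows. In all promoters their shares were 0.138%, 6.36%, 3.25% and 13.1%. The MEIS motif TGACAG (15.6% of all promoters) and the SOX motif ACAATG (10.9%) were each found in 1 called window, of Sox2 and of Pax9. A GC box or AP-2 match can share bases with a CACCC box, and a match is a description of these letters only.

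Regulators that work beside these factors were taken from a list of 50 genes, of which 43 were measured. In peri-implant epithelium 9 rose (20.9%) and 2 fell (4.65%), against the 7.39% and 5.34% of all genes, with a median difference of 0.19 against 0.05. Median centring gave 6 and 4. The list was chosen with results of these arrays known, so its direction is no independent evidence. Cebpb, which acts in keratinocyte differentiation and in acute inflammation, was at 9.98 and 9.98 against 10.81 and 10.76 and rose 1.75-fold (adjusted p = 0.00241). Hr, the hairless corepressor, rose from 8.83 ± 0.19 to 10.14 ± 0.07, and Satb1, a chromatin organizer in basal keratinocytes and T cells, from 8.55 ± 0.19 to 9.66 ± 0.09. Tfcp2l1 of the grainyhead-related CP2 family rose from 7.59 ± 0.15 to 8.64 ± 0.05, and Znf750, a target of TP63 in differentiation, from 10.18 ± 0.14 to 10.73 ± 0.21. Inhibitors of DNA binding moved both ways. Id4 was at 11.44 and 11.21 against 10.18 and 9.83 and fell 2.50-fold (adjusted p = 0.000766), and Id3 fell 1.42-fold, while Id1 rose 1.29-fold and Id2 did not pass (adjusted p = 0.517). Runx3, at 6.39 and 5.68 against 7.60 and 7.60, was at least 2.27-fold higher. Without a single array the number of regulators called was 1 to 3.

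Textbook target genes of TP63, grainyhead-like and Krüppel-like factors changed in both directions: of 38 measured among 44 listed, 3 rose and 9 fell, with a median difference of 0.03 (3 and 13 with median centring). These are 7.89% and 23.7% of the list, against 7.39% and 5.34% of all genes. This list too was chosen with earlier results known. Lamb3 and Itgb4, attachment genes regulated by TP63, fell by 0.97 and 0.46 on the log2 scale, and the Notch ligand gene Jag2 fell by 0.78. Igfbp3, which encodes a binding protein for insulin-like growth factors, fell by 0.45. The cell cycle inhibitor Cdkn1c was at 10.07 and 10.02 against 7.30 and 7.75 and fell 5.74-fold (adjusted p = 0.000183). Krt10, a keratin of keratinizing suprabasal cells, fell 6.18-fold and Krt1, its partner, 1.49-fold. Tgm1, the transglutaminase that cross-links the cornified envelope, was at 12.46 and 12.58 against 13.08 and 13.22 and rose 1.55-fold (adjusted p = 0.00241). Krt4 and Krt15 rose 1.33-fold and 1.34-fold. The remaining called genes, Cdkn1a and Itga6, fell 1.33-fold and 1.31-fold. The number of target genes called was 3 without either junctional array, 8 without peri-implant replicate 1 and 12 without peri-implant replicate 2. Tp63, Grhl1, Grhl3, Klf4 and Klf5 themselves did not pass, as given above.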

How the data were processed

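Affymetrix rat array signals were read from the deposited table of 31099 probe sets. The values deposited by the authors are log2 signals. The software that made them is unnamed (not given in the sources used here). In linear form every array averaged 500.2 once the top and bottom 2% were removed, and 378 to 729 probe sets per array stood at 0. No array was normalized again. The 57 controls were removed. Among the others, 20826 carried 1 symbol in the platform annotation, 436 several and 9780 none.

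Groups and replicate numbers came from the titles. Peri-implant and junctional epithelium were compared in R 4.3.3 with limma 3.58.1 (lmFit, then eBayes with an intensity trend and a robust prior, two-sided, residual degrees of freedom 2). Benjamini-Hochberg adjustment ran over 14217 genes, with a threshold of 0.05. This prior was chosen with earlier results of these data known, in which the default prior passed 0 genes. The genes described, the role lists and the gene lists were likewise chosen with earlier results known. Where an array of the dimmer group lay at or below background, signals were raised to it and the fold is given as "at least". An exact permutation test of 2 against 2 arrays cannot go below p = 0.333 and was not used. Named were all called factors, the epithelial, oral and dental factors above background, and for other groups those with the largest signals or differences, with relatives of these added after their values were seen. Of the regulator and target lists, the 8 genes past the test with the largest differences were named. Id1, Id2, Krt4, Krt15, Cdkn1a and Itga6 were added after their values were seen. Alternatives were the default prior, a trend without the robust prior, quantile normalization, median centring, raised background, a filter on low signals, the mean of all probe sets, a replicate block and leaving out each array. The test was checked on simulated arrays with known changes, fewer than the calls made here. On the log2 scale it found 0.4% of changes of 0.5, 25.2% of 1, 60% of 2 and 73.6% of 3. Over 5 runs it called 2 of 70085 unchanged genes. With fewer changed genes the adjustment is stricter, so the shares found may be too low for the real arrays. A gene that did not pass may still have changed.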

Additional observations from a re-analysis of the deposited data

How the results depend on the processing

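With limma's default prior the counts of factors called higher, factors called lower, related regulators and target genes were all 0. With the mean of all probe sets, 6 factors were called higher and 2 lower, against 838 and 584 of all genes. Leaving out each array in turn gave 0 to 4 factors higher, 0 to 3 lower, 1 to 3 related regulators and 3 to 12 target genes. These fits have 1 residual degree of freedom and assume that a lone array varies like the others. They also called fewer of all genes than the fit on 4 arrays. Without a junctional array, Foxc1, Meis2 and Sim2 passed each time, and without a peri-implant array Sox4 and Klf6 did. Quantile normalization, median centring, raised background, the filter on low signals and the replicate block each left 14 to 16 of the 16 called factors past the test. The replicate block gave 11 factors higher and 8 lower, among them all 16, against 1410 and 1060 of all genes. Same-numbered arrays did not deviate together (r = 0.018 over all genes), so the numbers are not taken as a pairing. Over all genes, median centring moved the median difference from 0.05 to -0.06, and the calls from 1051 higher and 759 lower to 765 and 1157. Quantile normalization gave 878 and 876. The tissue captured and the cells in it could not be told apart from a change within epithelial cells, and signals at or below background give no order.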

Other observations

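Of the 142 factors, 44 had several probe sets. For 20 of them at least 2 probe sets were above background on all 4 arrays, and for 11 of these 20 the probe sets differed in sign. Elf1 had 0.11 and -0.60 (log2 difference, peri-implant minus junctional), and Foxp1 ranged from -0.50 to 0.54 over 4 such probe sets. Klf12 had 0.33 and 1.12, both higher in peri-implant epithelium. In limma with an intensity trend over all probe sets with 1 symbol, the Klf12 probe set at 1.12 passed (adjusted p = 0.0386). The Foxp1 probe set at 0.54 passed in the same fit (adjusted p = 0.0328). Neither was the brightest of its gene. Klf5 ranged from -0.64 to 0.16, with 3 of its 4 probe sets between 0.09 and 0.16. These genes were chosen after their values were seen.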
